A study of Mus musculus with 24 samples.

Results

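The genes described here belong to the splicing factor and RNA-binding families of the mouse brain. They were chosen by name alone, as probe sets whose single annotated gene symbol began with Srsf, Hnrnp, Sf3a, Sf3b, Snrp, U2af, Celf, Rbfox, Nova, Elavl, Ptbp, Mbnl or Srrm. This gave 129 probe sets of 65 genes, among 24833 probe sets that named 13674 genes in all, 78 on the Affymetrix MGU74A design (array A in the plots) and 51 on MGU74B (array B). A probe set is a group of short probes that together report 1 transcript, and its intensity is their summarised brightness. Total RNA of mouse brain was hybridised to 12 arrays of each design, 6 from Ts1Cje mice and 6 from 2N mice, the controls with an unaltered set of chromosomes. Ts1Cje is a mouse model of Down syndrome with a translocated extra copy of the distal part of chromosome 16, on which the boundary gene Sod1 is disrupted. The labels name no strain, age, sex or brain region. Nor do they state whether replicates are different animals, so the p-values rest on a spread among samples that may be technical.

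Splicing removes introns from pre-mRNA. The spliceosome is built from small nuclear ribonucleoproteins (snRNPs), most of them an RNA held in a ring of Sm proteins. The U2 snRNP with the U2AF dimer marks the 3' end of the intron. SR proteins generally promote the use of exons they bind, and heterogeneous nuclear ribonucleoproteins (hnRNPs) often repress it. In brain, the Elavl, Nova, Rbfox and Celf proteins together with Ptbp2 set many exon choices of neuronal transcripts. Son, a splicing cofactor whose gene lies in the trisomic part, is outside the member rule. In Ts1Cje its intensity on MGU74A was 242 ± 20.6 against 127 ± 8.59 in 2N (SD, n = 6; log2 difference 0.92, limma adjusted p = 1.03e-05). A dimmer Son probe set there, at 42.3 ± 7.42 against 27.6 ± 7.86, did not pass (0.66, limma adjusted p = 0.92), and the one on MGU74B did (0.79, limma adjusted p = 0.016). None of the 65 member genes lies distal to Sod1 in the gene order of GRCm38.p6, so by that order none is in the trisomic part.

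The promoters of the member genes shared a sequence feature that the rule did not use. RefSeq promoter sequence (GRCm38.p6) was matched for 57 of the 65 genes, 1 start site a gene (the first listed). The dinucleotide CG, which reads the same on both strands, was counted in the 250 bases before the start. The median was 19 in member genes and 10 over 17491 protein-coding genes, and 10 or more CG were present in 52 of 57 members (91.2%) against 50.4% of all. The motif TATAAA, on either strand, was present in 12.3% of member promoters and 12.4% of all. The Srsf promoters had a median of 33 CG and the Hnrnp promoters 23, while those of Rbfox1 and Rbfox3 had 2 and 3. Few CG were not particular to Rbfox, with 1 at Mbnl1, 3 at Celf2 and 4 at the snRNP gene Snrpa1. Of 10 Elavl, Nova, Rbfox and Celf promoters, 7 had 10 or more. Snrpg and Hnrnpab are printed because their values are given in full further on, and Rbfox3, chosen after its value was seen, as a neuronal gene with few CG. They lie at chr6:86371290-86371539 (plus strand), chr11:51606882-51607131 (minus strand) and chr11:118761042-118761291 (minus strand), and each CG is in capitals. A CG count is a description of the sequence, and no expression value here bears on it.
Snrpg: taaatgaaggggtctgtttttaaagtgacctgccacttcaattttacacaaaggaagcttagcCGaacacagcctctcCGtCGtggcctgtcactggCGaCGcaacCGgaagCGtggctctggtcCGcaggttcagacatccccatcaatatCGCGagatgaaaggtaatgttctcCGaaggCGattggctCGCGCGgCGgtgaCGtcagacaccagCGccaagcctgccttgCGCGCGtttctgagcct
Hnrnpab: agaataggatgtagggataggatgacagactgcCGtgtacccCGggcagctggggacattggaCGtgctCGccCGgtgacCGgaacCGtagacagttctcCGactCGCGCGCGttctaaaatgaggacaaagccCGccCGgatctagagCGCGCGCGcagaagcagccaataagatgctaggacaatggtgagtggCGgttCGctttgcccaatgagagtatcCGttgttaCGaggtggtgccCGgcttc
Rbfox3: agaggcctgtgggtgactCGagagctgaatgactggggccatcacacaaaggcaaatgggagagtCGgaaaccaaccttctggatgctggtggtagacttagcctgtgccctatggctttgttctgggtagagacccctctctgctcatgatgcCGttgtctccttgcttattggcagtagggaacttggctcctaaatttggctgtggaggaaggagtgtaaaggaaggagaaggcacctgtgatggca

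Intensities were quantile normalised within each design, and 119 of the 129 member probe sets, representing all 65 genes, were bright enough to be tested. The other 10, of Srrm2, Snrpb, Hnrnpdl, Mbnl2, Hnrnph1, Hnrnpul1 and Hnrnpc, lay below the 25th percentile of mean intensity of their design, and each of these genes had another probe set that was tested. Suffixes s, f or g in 14 probe set names mark probes that also match related transcripts, so those values may include other family members. Among genes that mark brain cell types, 5 of 5 neuronal markers were measured on MGU74A, with Stmn2 at 1839 and Tubb3 at 2673 in 2N. The summed neuronal markers ran from 4363 to 5173 in 2N and from 4736 to 5564 in Ts1Cje. On MGU74A 0 of 24 tested markers of neurons, astrocytes, oligodendrocytes, microglia, endothelium and red cells passed, and on MGU74B none of those tested. In that order, 0 of 5, 1 of 4, 2 of 2, 4 of 5, 2 of 5 and 3 of 3 differences on MGU74A were below 0. An unadjusted limma p under 0.05 was reached by Glul on MGU74A (log2 difference 0.38, with 0.19 on MGU74B). Flt1 reached it on MGU74B (-1.07, with -0.09 on MGU74A). In whole tissue, fewer cells of a type and less RNA per cell cannot be told apart.

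No splicing-family probe set differed between Ts1Cje and 2N brain at the adjusted threshold. On MGU74A, 0 of 75 tested member probe sets had a limma adjusted p under 0.05, where 0.0966% of all tested probe sets did, and on MGU74B 0 of 44 passed against 0.0645%. The lowest adjusted p was 0.99 on MGU74A and 0.996 on MGU74B. An unadjusted p under 0.05 was reached by 4 members on MGU74A, where 3.63% of all probe sets reached it and 5.33% of the members. On MGU74B 1 member reached it, or 2.27% against 4.24%. All 5 were lower in Ts1Cje, where 1.72% of all MGU74A probe sets and 2.11% of those of MGU74B were called in that direction. None was higher, against 1.91% and 2.14%. The genotypes were fully separated, with no overlap between samples, for 0 members on either design. Over all probe sets they were separated downward for 0.107% and 0.0537%, and upward for 0.193% of each design. With 2N replicate 3, 2N replicate 5, Ts1Cje replicate 1 or Ts1Cje replicate 2 left out alone, the unadjusted count on MGU74A was 2. In those fits 3.76% to 4.18% of all probe sets had an unadjusted p under 0.05. Without normalisation between arrays the count was 0 on either array, beside 1.66% of all probe sets on MGU74A and 1.91% on MGU74B.

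The 95% interval lay within 1.5-fold in either direction (a log2 difference between -0.58 and 0.58) for 55 of 75 tested member probe sets on MGU74A and 34 of 44 on MGU74B. Over all tested probe sets the shares were 55.2% and 46.9%. Dim probe sets are noisier, and at or above the median intensity of the design (30.8 on MGU74A and 16.1 on MGU74B) the counts were 51 of 54 and 34 of 36, where all probe sets that bright gave 91.4% and 83.2%. Below the median they were 4 of 21 and 0 of 8. The median log2 difference of the members was -0.02 on MGU74A and -0.04 on MGU74B, and that of all tested probe sets was -0.0042 and -0.0035. The difference was below 0 for 44 of 75 and 28 of 44 members, against 51.1% and 50.7% of all.

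**Figure D1:**
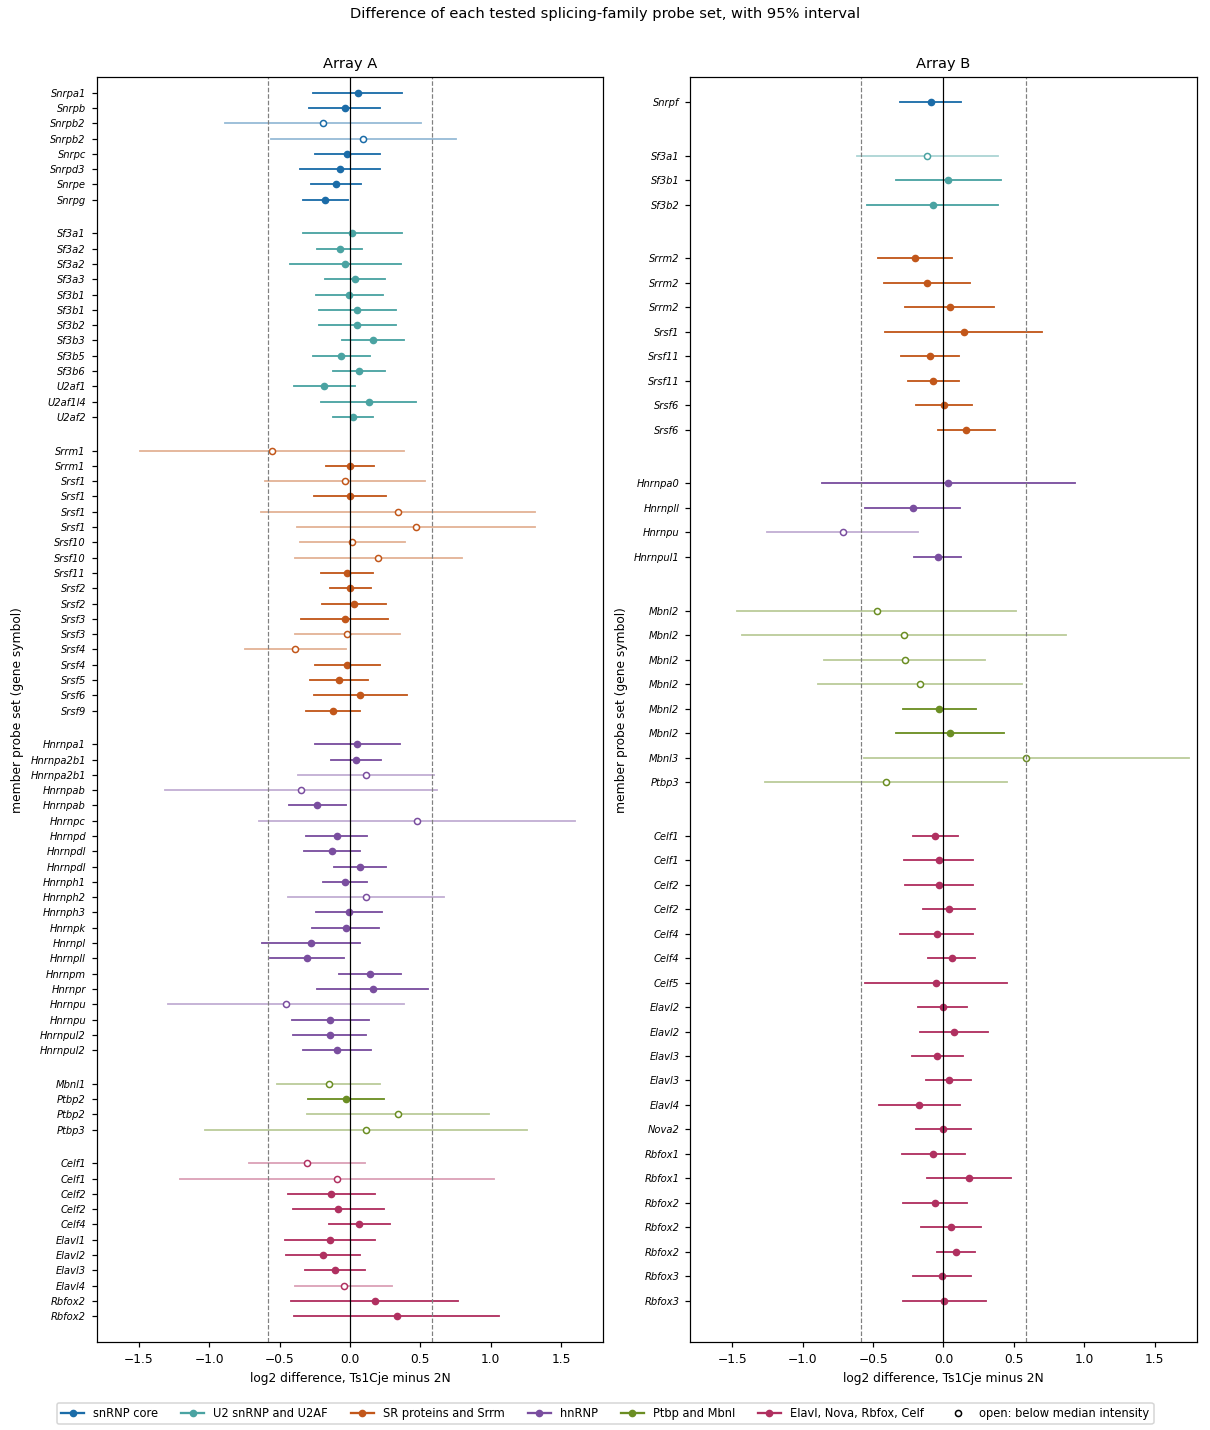
Log2 difference (Ts1Cje minus 2N) of every tested splicing-family probe set, with its 95% limma interval, on MGU74A (75) and MGU74B (44). Colours mark the families, open symbols mark probe sets below the median intensity, and dashed lines mark 1.5-fold. Intervals that reach far past the dashed lines are mostly those of open symbols.

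The core snRNP genes encode the Sm ring and the proteins bound to U1 and U2 snRNA. Of 12 probe sets of 8 Snrp genes, 9 were tested, 7 differences were below 0 and 2 above, and 7 intervals lay within 1.5-fold. Snrpg, an Sm ring gene, ran from 331 through a median of 349 to 437 in 2N, and from 284 through 319 to 350 in Ts1Cje on MGU74A. Of the 6 Ts1Cje samples 5 lay below the lowest 2N sample, and the sixth, replicate 2, lay within the 2N range. The log2 difference was -0.18 (SE 0.076, interval -0.34 to -0.01, limma adjusted p = 0.99, unadjusted p = 0.034), and it was -0.15 among replicates 3 to 6 alone. Snrpb, which encodes the SmB ring protein, was at 952 to 1413 in 2N and 833 to 1346 in Ts1Cje. There 1 Ts1Cje sample lay below the 2N range and the other 5 inside it, with a log2 difference of -0.04 (SE 0.12). This Snrpb probe set carries the r suffix, and another one, at a mean of 1.33 in 2N, was too dim to be tested. Differences were -0.10 for Snrpe and -0.07 for Snrpd3, further ring genes, and -0.09 for Snrpf on MGU74B. They were -0.02 for the U1 gene Snrpc and 0.06 for the U2 gene Snrpa1. The dim Snrpb2 probe sets gave -0.19 and 0.10, with intervals over 1 log2 unit wide.

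The Sf3a and Sf3b subunits form the protein part of the U2 snRNP that grips the branch point, and U2af1 and U2af2 recognise the 3' splice site. All 16 probe sets of these 11 genes were tested, 7 below 0 and 9 above, and 15 intervals lay within 1.5-fold. U2af2, which binds the polypyrimidine tract, ran from 752 through 937 to 982 in 2N and from 863 through 904 to 966 in Ts1Cje, so the Ts1Cje samples lay inside the 2N range. Its log2 difference was 0.02 (SE 0.066), with an interval of -0.12 to 0.16. U2af1, which binds the AG at the intron end and whose human ortholog lies on the chromosome trisomic in Down syndrome, ran from 146 through 182 to 208 in 2N and from 129 through 163 to 177 in Ts1Cje. All 6 Ts1Cje samples lay below the 2N median, yet 4 of them lay within the 2N range, and the difference was -0.18 (SE 0.10, unadjusted p = 0.095, limma adjusted p = 0.99).

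Sf3b1, the subunit that clamps the branch point helix, was read by 3 probe sets, at -0.0061, 0.05 and 0.04. Sf3b3, at 68.5 to 90.6 in 2N and 77.9 to 103 in Ts1Cje, differed by 0.17 (SE 0.105, unadjusted p = 0.13, limma adjusted p = 0.99), with all 6 Ts1Cje samples above the 2N median and 2 above the 2N range. Sf3b6, which contacts the branch point, differed by 0.06 (SE 0.088), Sf3b5 by -0.06 and Sf3a3 by 0.04, and Sf3b2 gave 0.05 and -0.08. U2af1l4 differed by 0.13 (SE 0.16). The Sf3a2 probe sets differed by -0.07 and -0.03. Sf3a1 gave 0.02 on MGU74A and -0.12 on MGU74B, where its dim probe set had the one interval of this group that passed 1.5-fold (-0.62 to 0.39).

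The SR proteins carry arginine-serine repeats, and Srrm1 and Srrm2 are large nuclear matrix proteins of the same kind. Of 28 probe sets of 11 genes 26 were tested, with 14 differences below 0 and 12 above, and 19 intervals within 1.5-fold. Srsf2 (SC35), a marker of nuclear speckles, ran from 904 through 1000 to 1086 in 2N and from 892 through 992 to 1139 in Ts1Cje on MGU74A. The genotypes overlapped almost wholly, and the difference of 0.0039 had an interval of -0.14 to 0.15. Srsf1, the founding member of the family, had 5 probe sets on both arrays. The one above the median on MGU74A gave -0.00085 (SE 0.12), and the others, at mean intensities of 5.61 to 20.2 in 2N, lay between -0.04 and 0.47 with intervals that passed 1.5-fold.

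Srsf4 was read by 2 probe sets of unlike brightness. The probe set with the f suffix ran from 21.2 through 27.0 to 32.6 in 2N and from 17.2 through 19.3 to 26.1 in Ts1Cje, so that 4 of 6 Ts1Cje samples lay below the lowest 2N sample. Its log2 difference was -0.39 (SE 0.17, unadjusted p = 0.036, limma adjusted p = 0.99). The brighter Srsf4 probe set, at 140 ± 21.7 in 2N and 137 ± 14.2 in Ts1Cje (SD, n = 6), differed by -0.02 (SE 0.11), and the intervals of the pair overlap.

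Among the other SR genes, Srsf6 was at 0.08 on MGU74A and at 0.16 (SE 0.097) and 0.0015 on MGU74B. Srsf11 gave -0.02, -0.09 and -0.07 with its 3 probe sets. Srsf5 differed by -0.08, Srsf9 by -0.12 and both Srsf3 probe sets by -0.02 and -0.04. Srsf10, a regulator that responds to heat shock, gave 0.02 and 0.20, both dim. Srrm1 was at 260 ± 25.7 in 2N and 260 ± 21.1 in Ts1Cje (SD, n = 6; 0.0033), while its dim probe set, at a mean of 7.51 in 2N, gave -0.55 (SE 0.44), the lowest value of any member on MGU74A. Srrm2, a scaffold of nuclear speckles together with Son, gave -0.12 (SE 0.15), -0.20 (SE 0.12) and 0.04 (SE 0.15) with its 3 tested probe sets on MGU74B, and every interval held 0.

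The hnRNP genes form the largest group by genes among the families described here. Of 29 probe sets of 18 genes 25 were tested, 16 below 0 and 9 above, and 17 intervals lay within 1.5-fold. An unadjusted p under 0.05 was reached by 2 of 21 on MGU74A (3.63% of all probe sets) and 1 of 4 on MGU74B (4.24% of all), and no test set this family against the others. Hnrnpu, which binds chromatin and nuclear RNA, had the smallest unadjusted p of any member, on MGU74B. That probe set ran from 8.12 through 11.4 to 12.4 in 2N and from 4.51 through 6.37 to 8.67 in Ts1Cje, so 5 of 6 Ts1Cje samples lay below the lowest 2N sample and replicate 4 lay inside the 2N range. The log2 difference was -0.72 (SE 0.26, interval -1.26 to -0.18, unadjusted p = 0.012, limma adjusted p = 0.996), at an intensity below the median of the design. On MGU74A the brighter Hnrnpu probe set, at 61.7 ± 8.46 in 2N and 56.3 ± 8.36 in Ts1Cje (SD, n = 6), differed by -0.14 (SE 0.13). A dim one differed by -0.45 (SE 0.40). All 3 differences were below 0, and their intervals overlap.

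Hnrnpab, which encodes an RNA transport and splicing protein of neurons, ran from 116 through 128 to 135 in 2N and from 84.3 through 110 to 129 in Ts1Cje. In Ts1Cje 5 of 6 samples lay below the lowest 2N sample, and replicate 3 lay among the 2N samples. The difference was -0.23 (SE 0.096, interval -0.43 to -0.03, unadjusted p = 0.027, limma adjusted p = 0.99). Among replicates 3 to 6 alone it was -0.14, and among replicates 1 and 2 it was -0.41. The dim Hnrnpab probe set gave -0.34 (SE 0.46).

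Hnrnpll, a splicing regulator first described in lymphocytes, had a probe set on each array. On MGU74A it ran from 62.9 through 89.9 to 114 in 2N and from 66.9 through 74.8 to 78.7 in Ts1Cje. All 6 Ts1Cje samples lay below the 2N median and all lay within the 2N range, which was wide (SD 18.2 in 2N and 4.79 in Ts1Cje). The difference was -0.30 (SE 0.13, unadjusted p = 0.027, limma adjusted p = 0.99). On MGU74B it was -0.22 (SE 0.16), with 35.6 ± 7.95 in 2N and 30.4 ± 5.58 in Ts1Cje (SD, n = 6). The arrays may have carried the same RNA, so the second value need not be independent.

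**Figure D2:**
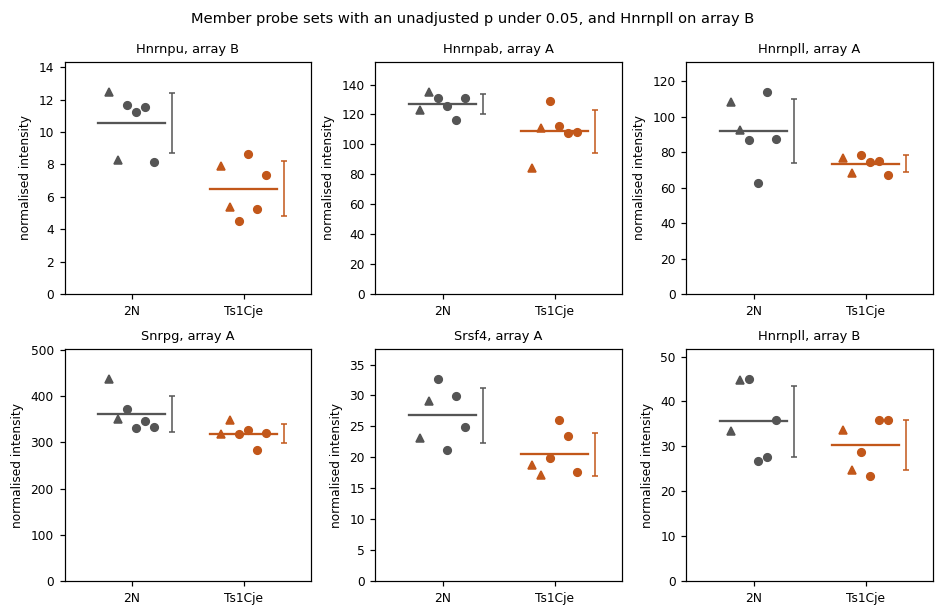
Normalised intensity by sample of the 5 splicing-family probe sets with an unadjusted p under 0.05, and of Hnrnpll on MGU74B. Triangles are replicates 1 and 2, circles replicates 3 to 6, horizontal lines are means of 6 samples and bars are SD. The genotypes overlap in every panel.

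The remaining hnRNP genes lay closer to 0 or had wide intervals. Hnrnph1, which binds G-rich tracts, was at 423 ± 25.7 in 2N and 414 ± 40.8 in Ts1Cje (SD, n = 6). Its difference of -0.03 had an interval of -0.19 to 0.12. Hnrnpa2b1, which also carries RNA into dendrites, was at 354 ± 40.6 and 364 ± 35.0 (0.04, SE 0.084), and a dim probe set gave 0.11. Hnrnpdl gave 0.07 and -0.13, Hnrnpd -0.09 (SE 0.10), Hnrnpul1 -0.04 (SE 0.080) and Hnrnph3 -0.0060 (SE 0.11). The dim probe sets of Hnrnpc and Hnrnph2 gave 0.48 (SE 0.53) and 0.11 (SE 0.26). Differences were 0.05 for Hnrnpa1 and -0.03 for Hnrnpk, 0.14 (SE 0.105) for Hnrnpm and 0.16 (SE 0.19) for Hnrnpr. Hnrnpl, which binds CA repeats, was at -0.28 (SE 0.17), with an interval of -0.63 to 0.07, and the Hnrnpul2 probe sets were at -0.14 and -0.09. Hnrnpa0, read by an r-suffixed probe set whose values ranged widely (27.1 ± 16.9 in 2N, SD, n = 6), had an interval of -0.86 to 0.93 and so was not resolved.

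Ptbp proteins repress neuronal exons, with Ptbp2 taking over from Ptbp1 as neurons form, and Mbnl proteins switch exons from fetal to adult patterns. Of 13 probe sets of 5 genes 12 were tested, 8 below 0 and 4 above, but only 3 were at or above the median intensity and only 4 intervals lay within 1.5-fold. The bright Ptbp2 probe set ran from 90.3 through 108 to 156 in 2N and from 90.1 through 112 to 127 in Ts1Cje, and its difference was -0.03 (SE 0.13). Mbnl1 differed by -0.15 (SE 0.17). The Mbnl2 probe sets at or above the median gave -0.03 (SE 0.12) and 0.05 (SE 0.18), and 4 dim ones lay between -0.48 and -0.16. The dim Ptbp2 probe set gave 0.34 (SE 0.31). Mbnl3, near the floor at 3.78 ± 3.04 in 2N (SD, n = 6) with a difference of 0.59, and both Ptbp3 probe sets, at 0.11 and -0.41, had intervals over 1.5 log2 units wide. Ptbp1 was not analysed here.

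The Elavl, Nova, Rbfox and Celf families hold most of the neuron-enriched regulators. On MGU74B all 20 of their tested probe sets were above the median intensity and all 20 intervals lay within 1.5-fold, that of Celf5 only just (-0.56 to 0.45). All MGU74B probe sets that bright gave 83.2%. On MGU74A 7 of 11 intervals lay within 1.5-fold. Among the 8 of these at or above the median it was 6, where all MGU74A probe sets that bright gave 91.4%. Over both arrays 31 probe sets of 12 genes were tested, 20 below 0 and 11 above, and 27 intervals lay within 1.5-fold. Nova2, a cortical splicing regulator that binds YCAY motifs, was read on MGU74B, where it ran from 378 through 427 to 521 in 2N and from 378 through 437 to 512 in Ts1Cje. The ranges coincided, and the difference was -4.84e-05, with an interval of -0.19 to 0.19.

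The Elavl (Hu) proteins bind AU-rich RNA, and Elavl2, Elavl3 and Elavl4 are neuronal whereas Elavl1 is widely expressed. Elavl3 ran from 308 through 376 to 408 in 2N and from 295 through 365 to 395 in Ts1Cje on MGU74B (-0.05, interval -0.23 to 0.14). Its other probe sets gave 0.04 on that array and -0.10 on MGU74A. Elavl2 was at -0.19 (SE 0.13) on MGU74A and at -0.0061 and 0.08 on MGU74B. Elavl4 was at -0.05 and -0.17 (SE 0.14), and Elavl1 at -0.14 (SE 0.15). All 4 Elavl probe sets of MGU74A were below 0, and on MGU74B 3 of 5 were.

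The Rbfox proteins bind UGCAUG beside exons, and Rbfox3 is the neuronal antigen NeuN. Rbfox2 on MGU74B ran from 310 through 320 to 353 in 2N and from 323 through 344 to 378 in Ts1Cje. All 6 Ts1Cje samples lay above the 2N median and 2 lay above the highest 2N sample. The difference was 0.09 (SE 0.064, unadjusted p = 0.20, limma adjusted p = 0.996), with an interval of -0.05 to 0.22 that lies within 1.5-fold. Its other MGU74B probe sets were at 0.06 and -0.06. The Rbfox2 probe sets of MGU74A gave 0.18 and 0.33 with intervals up to 0.77 and 1.06, and at each 1 sample stood far from the rest of its group. Rbfox1, which lies on chromosome 16 outside the trisomic part, was at 0.18 (SE 0.14) and -0.07 (SE 0.11). Rbfox3 was at -0.0099 (SE 0.097) and 0.0069 (SE 0.14).

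The Celf proteins bind GU-rich RNA and act on splicing and on mRNA decay. On MGU74B Celf1 averaged 194 ± 13.4 in 2N and 187 ± 16.5 in Ts1Cje (SD, n = 6; -0.06, SE 0.076), and its other probe sets gave -0.03, -0.31 (SE 0.20) and -0.09 (SE 0.53). Celf2 lay between -0.13 and 0.04 over 4 probe sets. Celf4 was at 0.07 on MGU74A and at 0.06 and -0.05 on MGU74B. Celf5 varied most between samples of 1 genotype among the bright members of this group on MGU74B, from 135 through 158 to 398 in 2N and from 116 through 197 to 258 in Ts1Cje, with a difference of -0.05 (SE 0.24).

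**Figure D3:**
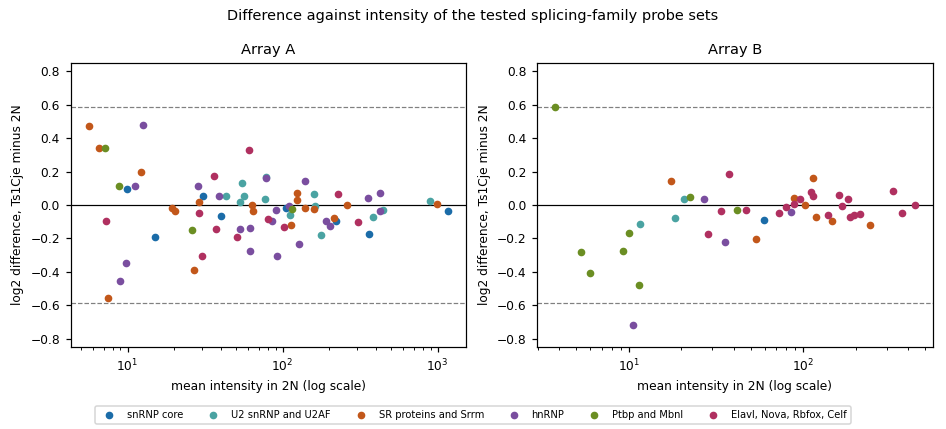
Log2 difference (Ts1Cje minus 2N) of each tested splicing-family probe set against its mean intensity in 2N (log axis), for MGU74A (left) and MGU74B (right). Colours mark families and dashed lines 1.5-fold. The points past 0.40 in size, in either direction, lie at intensities below 15.

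Genes with several probe sets allowed their values to be set side by side. Of 32 member genes with several tested probe sets, 14 had all differences of 1 sign (10 below 0 and 4 above), 18 had both signs, and for all 32 the 95% intervals of all probe sets shared a common value. The genes with every difference below 0 were Celf1, Elavl4, Hnrnpab, Hnrnpll, Hnrnpu, Hnrnpul2, Sf3a2, Srsf11, Srsf3 and Srsf4. Those with every difference above 0 were Hnrnpa2b1, Srsf10, Srsf2 and Srsf6. Dim probe sets had wide intervals, so a shared value was easily reached, and the share of 1-sign genes to be had by chance was not computed. Probe sets of a gene on 1 array share samples, and those on different arrays may, so agreement among them is not replication.

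A split of replicates 1 and 2 from replicates 3 to 6 was noticed in the data and is not named in the labels. The counts below come from the same values, so they describe the split and do not test it. The share to be had by chance was not computed. The 4 arrays of replicates 1 and 2 did not overlap the 8 others for 1 of 75 tested member probe sets on MGU74A (background 2.92%) and for 5 of 44 on MGU74B (background 2.94%). Rbfox3 on MGU74B ran from 104 to 119 in replicates 1 and 2 and from 66.1 to 90.2 in the others, with genotype means of 88.7 and 89.1. Srrm2 ran from 265 to 315 against 160 to 236, and U2af1l4, a U2af1 relative, from 67.1 to 76.3 against 38.8 to 55.0 on MGU74A. Celf4 went the other way, from 53.2 to 70.0 against 72.6 to 86.9, as did Elavl3 (163 to 175 against 176 to 211) and Rbfox2 (101 to 107 against 108 to 152). Both genotypes are equally present on each side of the split. With the split as a term in the fit 0 members passed on either array.

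**Figure D4:**
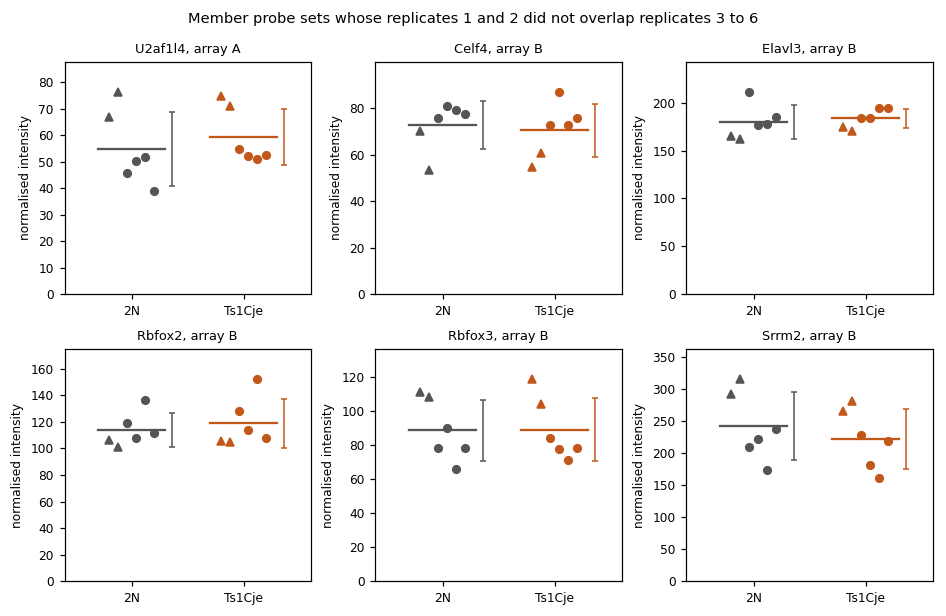
Normalised intensity by sample of the 6 splicing-family probe sets whose replicates 1 and 2 (triangles) did not overlap replicates 3 to 6 (circles). Lines are means of 6 samples and bars are SD. The 2N and Ts1Cje means differ by less than 1 SD in every panel, and the triangles lie to 1 side of the circles.

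Other splicing genes, from a list of 110 kinases, helicases, Prp and Lsm proteins and further RNA-binding proteins, were read from the same fit with the brightest probe set of each gene. On MGU74A 0 of 77 passed and 1 had an unadjusted p under 0.05 (1.3%, against 3.63% of all probe sets). On MGU74B 0 of 42 passed and 2 had one (4.76%, against 4.24%). Their median differences were -0.02 and -0.01. Snw1, a spliceosome component, was at 41.2 ± 3.72 in 2N and 31.3 ± 7.94 in Ts1Cje (SD, n = 6; -0.43, SE 0.15, limma adjusted p = 0.99), and at -0.08 (SE 0.11) on MGU74B. The RNA export adaptor gene Alyref was at -0.24 (SE 0.12), with -0.17 (SE 0.29) on MGU74B. Upward, the spliceosome gene Cdc5l was at 0.27 (SE 0.14), with 0.04 (SE 0.22) on MGU74B. Tardbp, which encodes the repressor of cryptic exons TDP-43, was at 0.23 (SE 0.12) on MGU74A and 0.46 (SE 0.18) on MGU74B, where it was at 23.1 ± 2.67 in 2N and 33.0 ± 12.2 in Ts1Cje (SD, n = 6; limma adjusted p = 0.996). On MGU74B Prpf39 was at -0.30 (SE 0.13), with 0.15 (SE 0.33) on MGU74A, Prpf38b at -0.25 (SE 0.18), with -0.32 (SE 0.17) on MGU74A, and Khdrbs3, a brain paralog of Sam68, at 0.32 (SE 0.19).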

How the data were processed

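On each of 2 Affymetrix designs, brain RNA was measured on 12 arrays, 6 of 2N and 6 of Ts1Cje. The labels do not say whether the designs carried the same RNA. The deposited values are linear intensities. The sources used here do not say how the authors summarised, scaled or background-corrected them. The median array intensity ran from 11.2 to 21.7 on MGU74A and from 7.9 to 13.8 on MGU74B, and trimmed means differed up to 2.10-fold and 1.86-fold. Each table was therefore quantile normalised after 66 control probe sets were left out, floored at its 10th percentile (1.47 and 1.13) and converted to log2. Those whose mean reached the 25th percentile (9316 and 9308) were tested with limma 3.58.1 in R 4.3.3 (lmFit, eBayes with a trend, no covariate), with Benjamini-Hochberg adjustment over each table and a threshold of 0.05. Intervals are 95% limma intervals. The tables were tested apart, and the number of arrays limits the precision. Symbols came from the platform annotation, and probe sets with several symbols were not counted as members.

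Members were matched by gene name alone. That match, the gene lists and the rule for naming genes were set with earlier results of these data known. That rule took, per array, the 4 members with the smallest p in each direction, the brightest probe set of each family, all tested Ptbp, Mbnl, Celf, Rbfox, Nova and Elavl probe sets, genes with several probe sets, and the 2 other splicing genes with the smallest p in each direction. Further members are named to complete a family. The pipeline was tested on simulated data. Alternatives changed the normalisation, floor, offset, filter, trend, test, weights, block, gene summary and samples. Replicate numbers were not taken to pair samples.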

Additional observations from a re-analysis of the deposited data

Results flagged for a closer look

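A genotype group of 6 samples at a tested member probe set was checked 238 times with Dixon's test. In 16 checks a sample's gap to the nearest other, divided by the range, exceeded the 95% critical value. Chance alone gives about 11.9 for normally distributed values. The share over all tested probe sets was not computed. On MGU74A, Rbfox2 in 2N replicate 2 was at 10.4 where the others ran from 34.7 to 46.0, and at another probe set Rbfox2 in Ts1Cje replicate 3 was at 154 where the others ran from 45.9 to 72.3. Low samples were Srsf3 in Ts1Cje replicate 6 at 48.0 (others 62.3 to 67.2), Sf3a2 in Ts1Cje replicate 1 at 284 (others 409 to 500), Srrm1 in 2N replicate 5 at 212 (others 260 to 288), Elavl1 in Ts1Cje replicate 1 at 22.4 (others 33.1 to 40.2) and Sf3b1 in 2N replicate 4 at 33.4 (others 42.5 to 48.9). Srsf1 in Ts1Cje replicate 2 was at 8.01 (others 19.1 to 26.8). Dim probe sets of MGU74A gave Srsf1 in 2N replicate 6 at 1.11 and Hnrnpab in Ts1Cje replicate 1 at 0.592, both below the floor. They also gave Ptbp2 in Ts1Cje replicate 6 at 6.14 and, as a high sample, Hnrnph2 in 2N replicate 3 at 19.8.

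On MGU74B, Rbfox2 in Ts1Cje replicate 5 was at 103 (others 132 to 151) and Celf4 in 2N replicate 2 at 53.2 (others 70.0 to 81.1). Srsf1 in Ts1Cje replicate 6 was at 7.75 (others 19.3 to 26.4). A Mbnl2 probe set in Ts1Cje replicate 4 was at 1.11, also below the floor, where the others ran from 10.3 to 13.5. None of these probe sets is among the 5 with an unadjusted p under 0.05.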

How the results depend on the processing

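The count of 0 members past the adjusted threshold held on both arrays under every alternative run, and the smallest adjusted p of any of the 119 members was 0.57. Of 2956 alternative values of single members, 1830 of MGU74A and 1087 of MGU74B moved by less than the SE, 32 and 7 moved further, and 0 turned sign with both values past their SE. The count with an unadjusted p under 0.05 was 0 on either array without normalisation between arrays, where the share of all probe sets fell as well, to 1.66% on MGU74A and 1.91% on MGU74B. It was 0 on MGU74B with the 50th percentile filter, where fewer probe sets are tested. On MGU74A it was 2 when 2N replicate 2, Ts1Cje replicate 2 and Ts1Cje replicate 6 were all left out, an alternative added after seeing the data. With 1 sample left out it ran from 2 to 5 on MGU74A and stayed at 1 on MGU74B. Where not stated, the cause was not tested. The median difference of the members ran from -0.05 to 0.0091 on MGU74A and from -0.05 to -0.01 on MGU74B with 1 sample left out. Without normalisation it was -0.08 and 0.02, beside -0.06 and 0.05 for all tested probe sets.

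Replicate numbers did not clearly pair the samples. The mean of its genotype was subtracted at each probe set, and each 2N sample was then correlated with each Ts1Cje sample. These remainders gave correlations of 0.0171 to 0.0767 for same-numbered samples on MGU74A and 0.0127 to 0.109 on MGU74B. Other pairs gave -0.0883 to 0.102 and -0.0624 to 0.0784. Of 6 2N samples, 3 on MGU74A and 2 on MGU74B correlated best with their own number. With the replicate block 5 members on MGU74A and 1 on MGU74B had an unadjusted p under 0.05, beside 5.16% and 5.32% of all probe sets in that fit, and the block changed no adjusted call of a member. Signal is one limit, since 25 of 29 members below the median intensity had intervals that passed 1.5-fold.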
